A study of Mus musculus with 2 samples.

Results

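Intraepithelial lymphocytes are T cells that live between the epithelial cells of the gut. They are set apart here by 10 genes: Ptprc, Cd3e, Cd3d, Cd3g, Cd8a, Gzma, Gzmb, Cd7, Itgae and Nkg7. Members were taken by exact match of the gene symbol, and all 10 were among the 17219 genes of the authors' deposited table. The F4KO mice of the study carried floxed Fabp4 and Cre under the villin promoter, and its WT mice carried floxed Fabp4 without Cre, so both genotypes had the floxed alleles. Fabp4 encodes a lipid chaperone of fat cells and macrophages, and the villin promoter is active in intestinal epithelium and not in lymphocytes. Of the F4KO and WT organoids, which were crypts grown in Matrigel and medium for 6 days, each genotype had 1 library. F4KO is a knockout in the titles and the design text but a knockdown in the genotype label. The same table also compares an F4KO Epi library with a WT Epi library. These are named in the column headers alone: the labels describe no such samples, so what Epi stands for, and the age, number of animals and preparation behind it, is unknown here. With 1 library per genotype there was no replicate check and no test of genotype, and every difference given here is between 2 libraries.

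Intraepithelial lymphocytes of the mouse gut are mostly CD8-bearing T cells with stored cytotoxic granules. The T cell receptor signals through the CD3 chains, CD8 is its co-receptor, and the granzymes are proteases that enter target cells from the granules. The integrin alpha chain CD103 holds these cells to E-cadherin on epithelial cells. Organoids grown from crypts are expected to hold epithelial cells and no lymphocytes, so the organoid libraries show what the same genes give where these cells should be missing.

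Start sites of 4 of these genes are shown because they cover the 3 CD3 chains, which lie together on chromosome 9, and Gzma, the most abundant of the 10. In the RefSeq gene annotation of GRCm38, which also gives the gene coordinates below, Cd3g and Cd3d run in opposite directions. Their gene starts are 1338 bases apart, and the stretch from Cd3g to Cd3e is 40092 bases long. The start sites behind the Cd3d and Cd3e windows differ from these gene bounds. Each window, from RefSeq (GRCm38.p6), holds the 250 bases before the RefSeq start site, 5′ to 3′ on the strand of the gene: chr9:44980432-44980681 (minus strand) for Cd3g, chr9:44981536-44981785 (plus strand) for Cd3d, chr9:45009612-45009861 (minus strand) for Cd3e and chr13:113100982-113101231 (minus strand) for Gzma. Capitals mark the ETS core AGGAAG and the RUNX core TGTGGT, searched on both strands.
Cd3g: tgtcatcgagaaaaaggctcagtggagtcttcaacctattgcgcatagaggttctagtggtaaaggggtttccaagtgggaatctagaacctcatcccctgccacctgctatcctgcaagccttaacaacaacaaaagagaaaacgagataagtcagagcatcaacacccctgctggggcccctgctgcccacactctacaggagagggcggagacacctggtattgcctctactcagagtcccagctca
Cd3d: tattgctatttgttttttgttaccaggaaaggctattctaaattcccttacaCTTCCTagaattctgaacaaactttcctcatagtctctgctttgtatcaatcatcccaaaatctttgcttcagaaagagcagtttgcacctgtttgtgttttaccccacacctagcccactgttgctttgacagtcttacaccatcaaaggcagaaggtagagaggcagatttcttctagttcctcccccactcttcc
Cd3e: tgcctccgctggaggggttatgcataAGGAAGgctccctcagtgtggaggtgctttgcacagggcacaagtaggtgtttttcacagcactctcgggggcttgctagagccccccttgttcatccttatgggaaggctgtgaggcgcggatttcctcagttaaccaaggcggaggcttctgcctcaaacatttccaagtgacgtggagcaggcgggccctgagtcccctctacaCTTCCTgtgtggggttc
Gzma: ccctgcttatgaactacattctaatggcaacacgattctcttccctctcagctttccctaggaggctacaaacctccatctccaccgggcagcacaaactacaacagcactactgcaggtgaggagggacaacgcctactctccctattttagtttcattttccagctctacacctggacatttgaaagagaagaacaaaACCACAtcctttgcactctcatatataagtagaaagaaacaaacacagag
Windows were found for 8 of the 10 genes, and Cd7 and Itgae had none. The ETS core was in the windows of Cd3d, Cd3e, Nkg7 and Ptprc, 4 of 8 genes, against 32.3% of all 27025 genes with a window. The RUNX core was in those of Gzma, Gzmb and Nkg7, 3 of 8, against 15.9% of all genes. These matches describe the letters and say nothing about binding.

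The authors' deposited table gives a log2 fold change, a p-value and a false discovery rate (FDR) per gene and no level per library. Read numbers were therefore recovered from the p-values and fold changes. Library totals, estimated from reads and transcript lengths, were close to 15.0 M reads for F4KO Epi, 18.4 M for WT Epi, 16.3 M for F4KO organoids and 16.4 M for WT organoids. The Epi libraries differed widely: the median log2 fold change over 16336 genes was 0.38, F4KO over WT, with 71.7% of genes above 0, whereas it was 0 over 15845 genes in the organoids. The size rule used here asks for a 2-fold difference or more (an absolute log2 value of 1) and an FDR no higher than 0.001. It took 1807 genes as higher and 160 as lower in F4KO Epi in the authors' deposited table. The Epi libraries both held Y-linked reads, with 360 reads of Kdm5d in F4KO Epi and 359 in WT Epi, while the organoid libraries had 249 in F4KO and 0 in WT. Of other Y-linked genes, Uty had 208 reads in F4KO organoids and 30 in WT organoids, and Ddx3y had 230 and 1. Eif2s3y had a log2 fold change of 9.53 in the organoids and -0.02 in the Epi comparison, in the authors' deposited table. In the organoid comparison, genotype and this Y-linked difference cannot be told apart. Fabp4 had 4 reads in F4KO Epi and 1 in WT Epi, and 0 reads in F4KO organoids and 1 in WT organoids. These are too few to check the genotype labels or the direction of the fold changes, which is read from the order of names in the headers.

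Together, the 10 genes were at almost the same level in both Epi libraries and those with an organoid value were nearly missing there. They had 5580 reads in F4KO Epi and 6906 in WT Epi, which are 373 and 375 RPM (reads scaled to the library total). The ratio of F4KO over WT was 0.994, with a 95% Clopper-Pearson interval from 0.959 to 1.03 that, like every interval here, covers counting error only. In bulk libraries fewer cells of a type and less RNA per cell cannot be told apart, and the same holds for equal levels. None of the 10 passed the size rule in the Epi comparison, against 12% of all genes in either direction. By FDR alone (0.001, at any fold), Cd7 was lower and was the 1 of the 10 that passed in the authors' deposited table, against 38.5% of all genes. The median log2 fold change of the 10 genes was 0.07 in the authors' deposited table, against 0.38 over all genes, and relative to that median it was -0.30. The 2 granzymes made up most of the reads, and without them the remaining 8 genes had 118 RPM in F4KO Epi and 123 in WT Epi (ratio 0.960, interval 0.901 to 1.02).

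**Figure D1:**
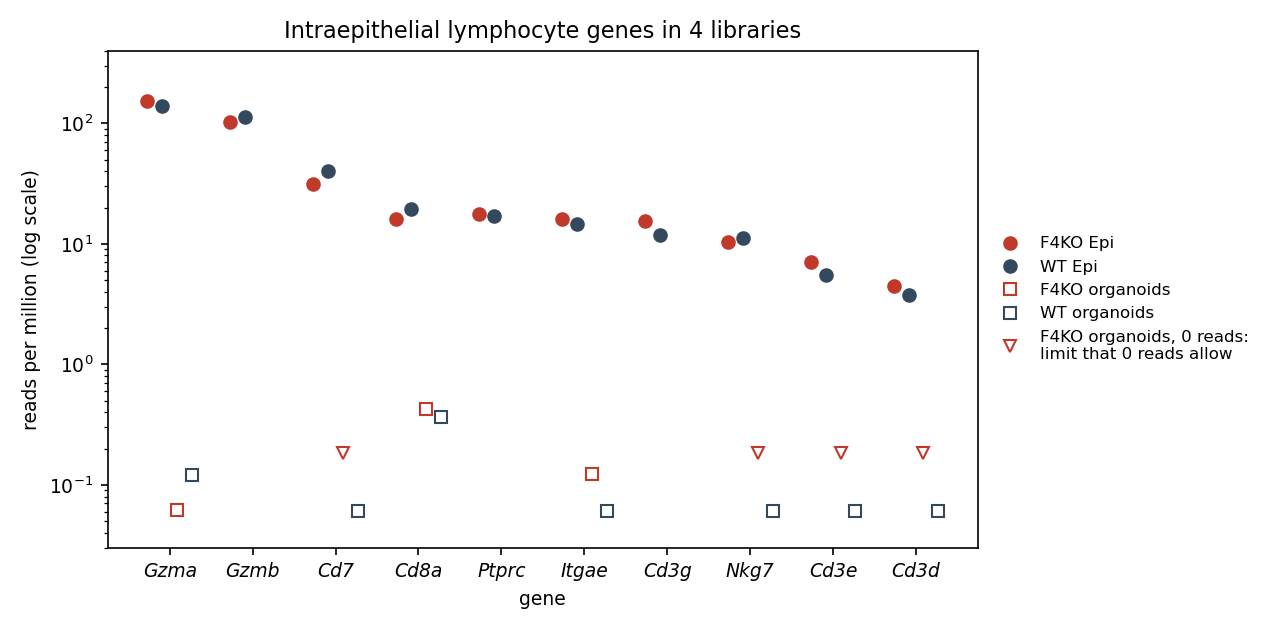
RPM (log scale) of each of the 10 genes in the F4KO Epi, WT Epi, F4KO organoid and WT organoid libraries, 1 point per library. Points of both Epi libraries lie close together for every gene, and all organoid points lie below 1 RPM; triangles mark the limit of 0.184 RPM that 0 reads of a gene allow in F4KO organoids.

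The CD3 chains carry the signal of the T cell receptor into the cell, and all 3 had ratios above 1, although none passed the FDR limit. Cd3g (gene ID 12502, chromosome 9, 44969572 to 44980431) had 232 reads in F4KO Epi and 220 in WT Epi, which are 15.5 and 11.9 RPM. Its ratio was 1.30 with an interval from 1.07 to 1.57, and the authors' deposited table gives it an FDR of 0.0120. Cd3e (gene ID 12501, chromosome 9, 44998735 to 45009663) had 105 reads in F4KO Epi and 101 in WT Epi, with a ratio of 1.28 and an interval from 0.964 to 1.70 that includes 1. Cd3d (gene ID 12500, chromosome 9, 44981769 to 44987052) had 67 and 69 reads in F4KO Epi and WT Epi, a ratio of 1.19 with an interval from 0.841 to 1.70. Its log2 fold change in the authors' deposited table, 0.09, is smaller than the 0.26 of the read ratio. Summed over the 3 chains, 27.0 RPM in F4KO Epi stood against 21.2 in WT Epi, a ratio of 1.27 with an interval from 1.11 to 1.47. The median over all genes was a 1.30-fold difference in the same comparison, inside that interval.

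Cd8a encodes the alpha chain of the CD8 co-receptor, which in many intraepithelial lymphocytes pairs with itself and not with the beta chain. The gene (gene ID 12525, chromosome 6, 71373427 to 71379171) had 242 reads in F4KO Epi and 359 in WT Epi, which are 16.2 and 19.5 RPM. Its ratio of 0.829 had an interval from 0.702 to 0.979, and the FDR in the authors' deposited table was 0.0455, above the limit of 0.001. The beta chain gene Cd8b1, which is outside the 10 and was picked after its value was seen, had 51 reads in F4KO Epi and 123 in WT Epi. Its log2 fold change was -0.95 (FDR 8.99e-05) in the authors' deposited table. The interval of Cd8a lies below that of Cd3g, but it overlaps those of Cd3e and Cd3d.

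Granzyme genes were the most abundant of the 10, with ratios close to 1, above it for Gzma and below it for Gzmb. Gzma (gene ID 14938, chromosome 13, 113093824 to 113100981), a tryptase-like granule protease, had 2284 reads in F4KO Epi and 2561 in WT Epi, 152 and 139 RPM. Its ratio was 1.10, with an interval from 1.04 to 1.16. Gzmb (gene ID 14939, chromosome 14, 56258836 to 56262334), which triggers apoptosis in target cells, had 1525 reads in F4KO Epi and 2075 in WT Epi, 102 and 113 RPM. The ratio of Gzmb was 0.904, with an interval from 0.846 to 0.966. Neither passed the FDR of 0.001 in the authors' deposited table, which gives 0.00305 for Gzma and 0.00627 for Gzmb. Summed, both granzymes were at 254 RPM in F4KO Epi and 252 in WT Epi. Nkg7 (gene ID 72310, chromosome 7, 43437138 to 43438246), a membrane protein of cytotoxic granules, had 154 reads in F4KO Epi and 205 in WT Epi, a ratio of 0.924 with an interval from 0.745 to 1.14.

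Of the other surface proteins, Cd7 was lower in F4KO Epi, and the intervals of Ptprc and Itgae include 1. Cd7, an immunoglobulin-like receptor of T and natural killer cells (gene ID 12516, chromosome 11, 121036747 to 121039478), had 468 reads in F4KO Epi and 736 in WT Epi, which are 31.2 and 39.9 RPM. Its ratio of 0.782, with an interval from 0.695 to 0.880, was the lowest of the 10, and its FDR of 8.85e-05 in the authors' deposited table was the only one of the 10 under 0.001. Ptprc, which encodes the leukocyte phosphatase CD45 (gene ID 19264, chromosome 1, 138062859 to 138175756), had 263 reads in F4KO Epi and 312 in WT Epi. Its ratio was 1.04, with an interval from 0.877 to 1.23. Itgae, which encodes CD103 (gene ID 16407, chromosome 11, 73090505 to 73147449), had 240 reads in F4KO Epi and 268 in WT Epi, a ratio of 1.10 with an interval from 0.922 to 1.32. No source used here says whether the counting used strand, and 3 of the 10 overlap another annotated gene: Itgae holds Haspin, Gzma lies within Cdc20b, and Cd7 overlaps the long non-coding RNA gene Gm11775. Haspin had 121 reads in F4KO Epi and 68 in WT Epi, and Cdc20b had 35 and 17. Their part in the values of Itgae and Gzma was not tested.

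**Figure D2:**
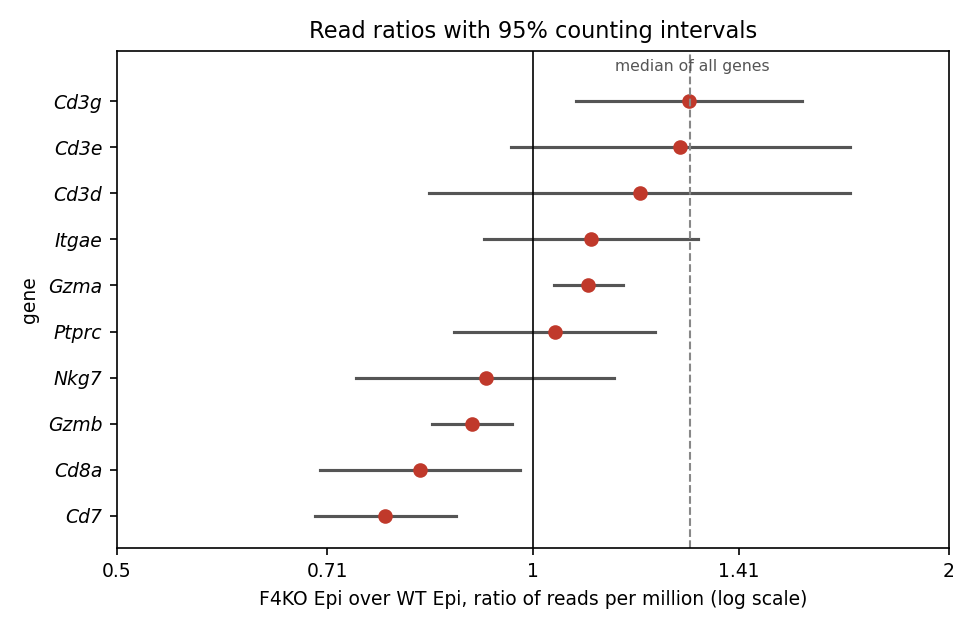
Ratio of RPM, F4KO Epi over WT Epi (log scale), for each of the 10 genes, with 95% Clopper-Pearson intervals for counting error and a dashed line at the median ratio of all genes, 1.30. The CD3 chains lie at the top, and Cd7 at 0.782 and Cd8a at 0.829 lie at the bottom.

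Per kilobase of transcript, the order of the 10 genes was nearly the same in both Epi libraries. Gzma came first with 174 RPKM (RPM per kilobase) in F4KO Epi and 158 in WT Epi, followed by Gzmb with 70.9 and 78.4 and by Cd7 with 31.8 and 40.7. These top 3 levels were apart from each other and from the rest beyond their counting intervals in both libraries. Cd3g and Nkg7 came next, with 15.1 and 11.7 in F4KO Epi and 11.7 and 12.6 in WT Epi, and did not differ from each other beyond their intervals. The lower 5, Cd8a, Cd3e, Itgae, Ptprc and Cd3d, lay between 2.77 and 5.17 in F4KO Epi and between 2.32 and 6.23 in WT Epi. In F4KO Epi each neighbour in this lower group overlapped the next, whereas in WT Epi Cd8a stood above Itgae and Ptprc above Cd3d. The lengths are those of the longest transcript in the files, or for Ptprc in the annotation, so the levels of genes with several transcripts are approximate.

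In the organoids the 7 genes with a value were at or near 0. Ptprc, Cd3g and Gzmb had no fold change listed for the organoid comparison, and no read number could be had for them there. The other 7 summed to 10 reads in F4KO organoids and 13 in WT organoids, or 0.613 and 0.791 RPM. Of these, Cd8a accounted for 7 reads in F4KO organoids and 6 in WT organoids. Gzma had 1 read in F4KO organoids and 2 in WT organoids, and Itgae had 2 and 1. Cd3e, Cd3d, Cd7 and Nkg7 had 0 reads in F4KO organoids and 1 in WT organoids each, where 0 reads allow up to 0.184 RPM. None of the 7 passed the size rule, against 0.107% of all genes higher, 0.24% lower and 0.347% in either direction. None passed by FDR alone either, against 3.09% of all genes higher, 4.7% lower and 7.79% in either direction. Their median log2 fold change of -2 in the authors' deposited table rests on these few reads, and at this depth no difference between the organoid genotypes was detectable.

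The same 7 genes stood far higher in the Epi libraries than in the organoids, which were compared within each genotype from totals estimated separately. In F4KO they had 3560 reads in the Epi library and 10 in the organoids, a ratio of 388 in RPM with an interval from 210 to 809. In WT they had 4299 reads in the Epi library and 13 in the organoids, a ratio of 295 with an interval from 172 to 554. Cd8a, with the most organoid reads, was 37.6-fold higher in the Epi library in F4KO and 53.4-fold in WT, with intervals from 18.0 to 94.6 and from 24.3 to 146. Gzma was 2486-fold higher in the Epi library in F4KO, with 1 read in organoids and an interval from 446 to 98249, and 1142-fold higher in WT, with 2 reads in organoids and an interval from 316 to 9436. Cd7 in F4KO, with 0 organoid reads, was at least 170-fold higher in the Epi library, counting the organoid library at 3 reads, and Cd3d was at least 24.3-fold higher by the same count.

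Reads of 5 of the genes were split among several transcripts in the authors' deposited table of transcripts, and there some differences were larger than in the gene totals. For Cd8a, the transcript NM_009857.1 had 0 reads in F4KO Epi and 99 in WT Epi, an upper limit of the ratio of 0.0467, and the transcript NM_001081110.2 had 242 in F4KO Epi and 260 in WT Epi. The second transcript alone had a ratio interval from 0.957 to 1.37, so the difference in Cd8a totals lay mainly in the reads assigned to the first. For Ptprc, XM_006529259.3 had 36 reads in F4KO Epi and 106 in WT Epi, and XM_006529260.1 ran the other way with 79 and 37. The remaining transcript, XM_006529262.4, had 146 and 167. For Cd3e, XM_006509966.4 had 0 reads in F4KO Epi and 19 in WT Epi, and NM_007648.5 had 105 and 81. Cd3d was split in opposite directions too, with 42 reads in F4KO Epi and 22 in WT Epi for NM_013487.3, and 25 and 46 for XM_006509965.1. Itgae had 203 reads in F4KO Epi and 237 in WT Epi for NM_008399.3, and 36 and 30 for XM_017314299.2. Transcripts of a gene can share sequence, and no source used here says how reads were assigned among them, so these splits are uncertain.

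**Figure D3:**
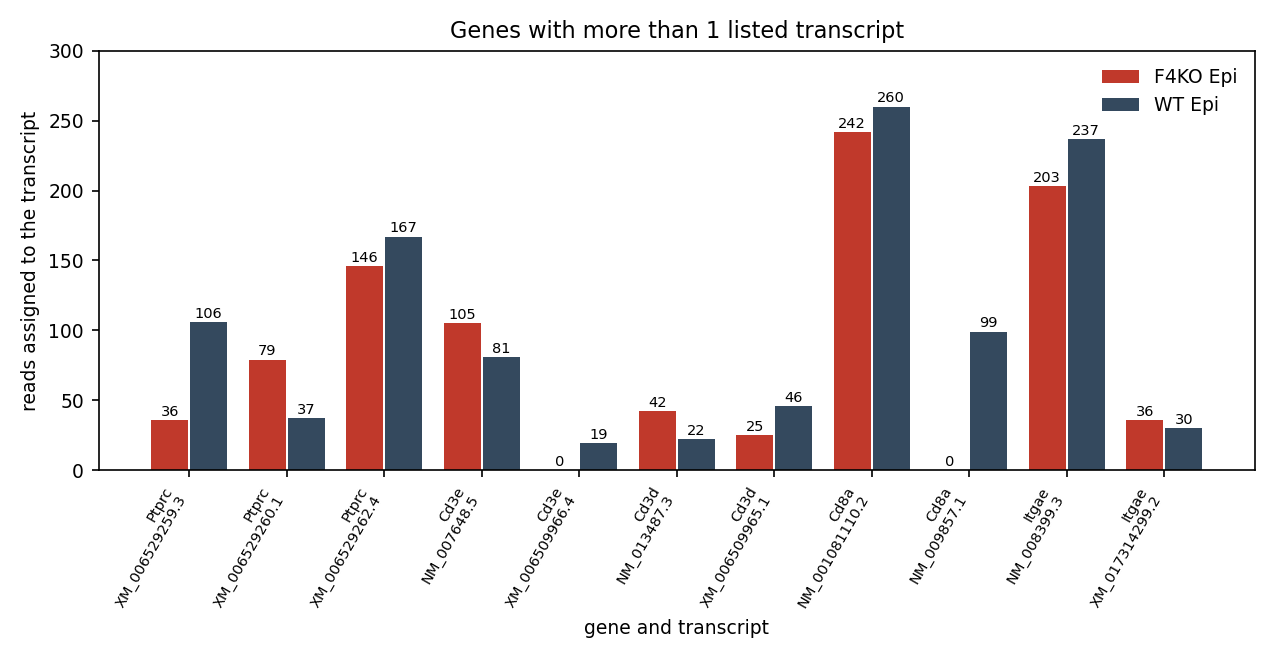
Reads assigned to each listed transcript of the 5 genes with more than 1 transcript, in F4KO Epi and WT Epi (1 library each), with the number above each bar. NM_009857.1 of Cd8a and XM_006509966.4 of Cd3e are at 0 in F4KO Epi, against 99 and 19 in WT Epi.

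Most other genes of lymphocytes and leukocytes did not pass either limit in the Epi comparison. Another 6 lists, on T cell receptor signalling, surface receptors, cytotoxic effectors, gut homing, transcription factors and leukocytes in general, held 85 genes of the table. Their median log2 fold change in the Epi comparison was 0.11 in the authors' deposited table. By the size rule 2 were higher and 0 lower in F4KO Epi, against 11.1% and 0.979% of all genes, and by FDR alone 7 were higher, 1 was lower (Cd8b1) and 77 did not pass, where 30.6% of all genes were higher and 7.92% lower. In the authors' deposited table Ptpn22, a phosphatase that dampens T cell receptor signalling, had a log2 fold change of 1.39 (FDR 3.46e-34). Gpr55, a lipid receptor, stood at 1.28 (FDR 1.52e-13) in the authors' deposited table. Gpr55 had 222 reads in F4KO Epi and 117 in WT Epi. In the organoids 49 of these genes had a fold change, with a median of 0 in the authors' deposited table. By FDR alone 0 were higher and 1 was lower there, against 3.09% of all genes higher and 4.7% lower in the organoids. The 1 that was lower was Cytip, named after its value was seen. The 7 listed constant genes of the T cell receptor had no row under the symbols searched, so no values could be given for them.

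Taken by role and by FDR alone, each list stands against 30.6% of all genes higher and 7.92% lower. Of 16 genes of T cell receptor signalling 3 were higher and 0 lower, with a median of 0.00 in the authors' deposited table. Lck, the kinase that starts this signal, had 128 reads in F4KO Epi and 140 in WT Epi, and the adaptor gene Fyb had 170 and 122. The 3 that were higher were Ptpn22, Fyb and Trat1, the last named after its value was seen. Of 21 surface receptors 0 were higher and 1 was lower, and Il2rb, a subunit of the interleukin-2 and interleukin-15 receptors, had 150 reads in F4KO Epi and 246 in WT Epi, at -0.39 (log2, FDR 0.0112) in the authors' deposited table. Thy1, a surface protein of T cells, had 110 reads in F4KO Epi and 124 in WT Epi. Of 13 cytotoxic effector genes 1 was higher: Ccl5, a chemokine that cytotoxic T cells store, with 1562 reads in F4KO Epi and 1297 in WT Epi. Its log2 fold change was 0.57 (FDR 1.15e-24) in the authors' deposited table. The 11 effector genes with recovered reads summed to 122 RPM in F4KO Epi and 85.7 in WT Epi, most of it Ccl5. Ctsw, a protease of cytotoxic cells, had 91 and 83 reads in F4KO Epi and WT Epi.

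Of 12 homing genes, Gpr55 was the 1 that was higher by FDR alone, against 30.6% of all genes. Itgb7, whose product pairs with CD103, had 131 reads in F4KO Epi and 126 in WT Epi, and Itga4, another integrin alpha chain, had 100 and 89. Of 11 transcription factors 1 was higher, Bcl11b, named after its value was seen, and Tox had 109 reads in F4KO Epi and 89 in WT Epi, while Ikzf1 had 54 and 74. Of 12 general leukocyte genes 1 was higher, the small GTPase gene Rac2, with 402 reads in F4KO Epi and 370 in WT Epi, and Laptm5 had 273 and 393. Genes higher here also had organoid reads: Trat1 had 16 in F4KO organoids and 21 in WT organoids. Ptpn22 had 11 and 2 there, Rac2 9 and 15, Fyb 8 and 4, Ccl5 5 and 4, and Gpr55 2 and 2. Bcl11b had an organoid fold change but no recovered reads. The part of cells other than lymphocytes in the Epi values of these genes was not tested.

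Epithelial genes that bear on these lymphocytes were within 2-fold in the Epi comparison. None of the 14 on this list passed the size rule, and their median was 0.00 in the authors' deposited table. By FDR alone 3 were higher and 4 lower, where 30.6% of all genes were higher and 7.92% lower. The 3 higher were Tnfrsf14 (log2 0.69), Il18 (0.65) and Il15ra (0.51). The 4 lower were Il15 (-0.51), Btnl1 (-0.37), Btnl6 (-0.28) and the E-cadherin gene Cdh1 (-0.12). These were named after their values were seen. H2-T3 and Btnl4, the 2 with the most recovered reads, did not pass that limit. H2-T3, which encodes the thymus leukaemia antigen that binds CD8 alpha homodimers, had 4599 reads in F4KO Epi and 5427 in WT Epi, a log2 fold change of 0.06 in the authors' deposited table. Btnl4, a butyrophilin-like gene of gut epithelium, had 4084 and 5226. These genes also had reads in the organoids, where H2-T3 had 258 in F4KO and 239 in WT and Btnl4 had 413 and 364.

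Markers of several other cell types passed the size rule in the Epi comparison. Of 12 stromal and endothelial markers 5 passed the size rule, all higher, against 11.1% of all genes higher and 0.979% lower. None of the endothelial genes Pecam1, Cdh5, Kdr, Vwf and Lyve1 was among the 5. The list had a median of 2.45 in the authors' deposited table. Acta2, the smooth muscle actin gene, had 61 reads in F4KO Epi and 3 in WT Epi, and Des, the muscle filament desmin gene, had 52 and 5. The collagen genes Col1a1 and Col3a1 had 33 and 36 reads in F4KO Epi, against 4 and 5 in WT Epi. The summed level of the 10 markers with recovered reads was 20.8 RPM in F4KO Epi and 6.51 in WT Epi, with Pdgfra and Kdr at 0 in WT Epi. Of these 312 and 120 reads, Lyve1 held 77 and 71, and it had 118 reads in F4KO organoids and 144 in WT organoids. Over 6 markers with recovered reads there, the list summed to 8.28 RPM in F4KO organoids and 9.67 in WT organoids. The part of epithelial cells in the Epi sum was not tested.

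Of 11 granulocyte and mast cell markers 4 passed, all higher, against 11.1% of all genes higher. The mast cell proteases were Mcpt1 (211 reads in F4KO Epi and 40 in WT Epi) and Mcpt2 (61 and 21). The other 2 were the receptor kinase Kit (118 and 44) and Siglecf (134 and 63), also known from epithelial cells. Kit had 119 reads in F4KO organoids and 147 in WT organoids as well, whereas Mcpt2 had 6 and 2 there and Siglecf 3 in each. All 11 summed to 37.5 RPM in F4KO Epi and 10.7 in WT Epi. S100a8, Ly6g and Epx were at 0 in F4KO Epi, and S100a9 and Fcer1a at 0 in WT Epi. Of 14 macrophage and dendritic cell markers 1 passed, against 11.1% of all genes higher. It was the integrin gene Itgam, with 334 reads in F4KO Epi and 156 in WT Epi. Itgax had 85 and 72, and Cd14 had 94 and 63. That list summed to 50.3 RPM in F4KO Epi and 27.9 in WT Epi, with Adgre1 at 0 in WT Epi. Over 12 genes with recovered reads there, it summed to 16.6 RPM in F4KO organoids and 24.0 in WT organoids. Cd14 had 84 reads in F4KO organoids and 111 in WT organoids, and Itgam had 42 and 56. The part of epithelial cells in the Epi sum of this list was not tested. Mast cells and macrophages also express Ptprc, and their part in its value was not tested.

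B and plasma cell markers summed to 15.8 RPM in F4KO Epi and 9.39 in WT Epi over 9 genes, with Tnfrsf17 at 0 in F4KO Epi. Jchain, the joining chain of secreted antibodies, was the 1 of the 9 past the size rule, against 11.1% of all genes higher. It had 182 reads in F4KO Epi and 83 in WT Epi, whereas Cd79a had 9 and 28 and Cd79b had 20 and 16. Markers of innate lymphoid cells summed to 12.7 RPM in F4KO Epi and 17.4 in WT Epi over 9 genes, most of them from Areg (164 and 291 reads), which epithelial cells also express. Il7r had 12 reads in F4KO Epi and 11 in WT Epi, while Ncr1 and Il13 were at 0 in F4KO Epi and Il22 and Il5 at 0 in WT Epi. Of 5 red blood cell genes with a fold change 3 passed, all lower in F4KO Epi, against 0.979% of all genes lower. Hba-a2, an alpha-globin gene with a near-identical copy, had 19 reads in F4KO Epi and 263 in WT Epi, while Hba-a1 and Hbb-bs were at -2.57 and -2.78 in the authors' deposited table. Over 3 genes with recovered reads that list summed to 1.94 RPM in F4KO Epi and 16.3 in WT Epi, with Alas2 at 0 in F4KO Epi. The part of all these cell types in the values of the 10 genes was not tested.

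Among epithelial markers, 1 of 10 passed, the keratin gene Krt19 at 1.08, against 11.1% of all genes higher. By FDR alone 3 were higher and 7 lower, where 30.6% of all genes were higher and 7.92% lower. The list had a median of -0.16 in the authors' deposited table. Krt18 and the transcription factor gene Cdx1 had 3072 and 2600 reads in F4KO Epi, against 2777 and 1953 in WT Epi. Set against this median in place of that of all genes, the 10 lymphocyte genes had a median of 0.23, so the side on which they fell depended on the yardstick.

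**Figure D4:**
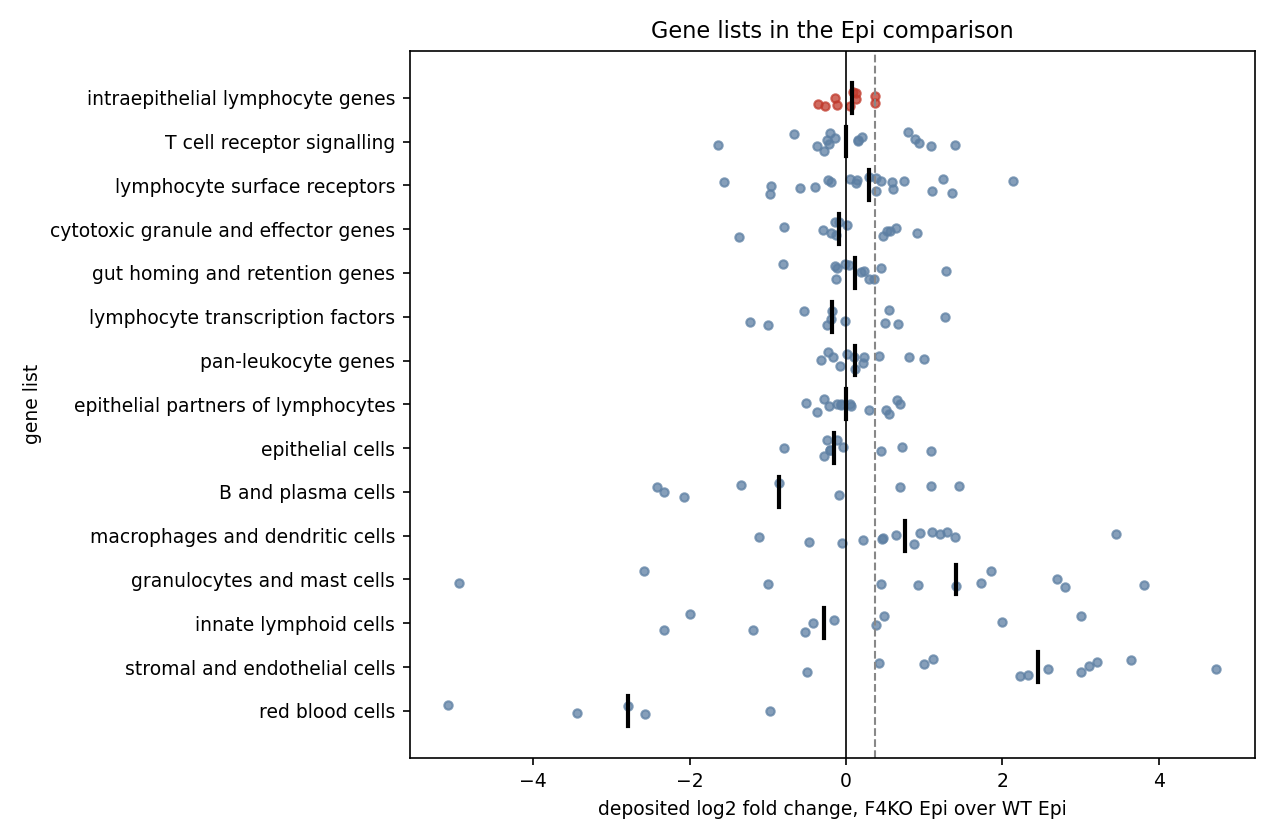
Deposited log2 fold change, F4KO Epi over WT Epi, of each gene of the lymphocyte genes (top row) and of 14 other lists, 1 point per gene, with a black bar at each list's median and a dashed line at the median of all genes, 0.38. The 10 genes span -0.35 to 0.38, while stromal markers reach 4.74 and red blood cell genes lie below 0.

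Genes of a like pattern were sought among those past the size rule in the Epi comparison with fewer than 20 reads, or no fold change, in the organoids, and outside all lists. Of 166 such genes the 5 nearest to the median of the 10 genes (0.07) were Lrrc75b, Syt5, Rasl12, Phf11b and ccdc198. Lrrc75b, the nearest, had 83 reads in F4KO Epi and 51 in WT Epi and lay 0.93 (log2) from that median in the authors' deposited table, and a gene past the size rule could lie no nearer, since the rule asks for 2-fold or more. The distances are therefore set by the rule and say nothing of how many genes behaved like the 10.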

How the data were processed

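RNA-seq libraries of organoids were made with a SMARTER mRNA-seq kit, per the labels' protocols; the Epi libraries are named per the file headers alone. The authors deposited, per gene and per transcript, a log2 fold change (taken as F4KO over WT, since the headers name WT before F4KO), a p-value from a test named after the Poisson distribution, and an FDR, which without a limit at 1 reaches 1.02 and so is held as a score in the organoid columns of the deposited tables. The submitters' processing notes name the builds GRCm38 and mm10. No aligner, counter or annotation is named in the sources used here.

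No source names the formula behind the deposited p-values; read numbers were recovered by matching them to the Audic-Claverie test, 2 times the smaller tail, with F4KO over WT library ratios of 0.813 (Epi) and 0.992 (organoids). A read pair was taken when it alone matched the p-value within a relative 4e-06 and the fold change within the rounding of levels, or, up to 400 reads in all, within 0.6 (log2). With p-values shifted by 0.03%, false matches were 0% to 4.63% of matches in Epi and 0.515% to 7.27% in organoids. In Epi, transcript sums of the 10 genes came within 2 reads of their gene totals. Library totals assume levels in steps of 0.01 RPKM and carry no error from replicates; 51.3% of 899 genes (Epi) and 51.7% of 1161 (organoids) lay within 5% of the commonest value. The recovery was tested on simulated data. Python 3.11.15, numpy 2.4.6, scipy 1.17.1 and pandas 2.3.3 were used.

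The planned design is by size, since 1 library per genotype allows no test of genotype. The members and lists were chosen with earlier results of these data known, and the deposited FDR compares libraries. In each list at most 4 genes are named: those past the size rule with the largest fold change, or, with fewer than 2 of these, the 2 with the most recovered reads. Named beyond this rule are markers at 0 reads in a library, and Cd8b1, Trat1, Bcl11b, Cytip and Vil1. Epithelial partner genes past the FDR limit and the endothelial genes that missed the size rule are also named. All but the markers at 0 reads were chosen after their values were seen.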

Additional observations from a re-analysis of the deposited data

Results flagged for a closer look

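Outside the 10 genes, 3 of the genes that the naming rule takes from the other lists had opposite directions in the Epi and the organoid comparison, each past the FDR limit of 0.001 in both. Fabp1, the liver-type fatty acid binding protein gene, was at -1.16 in the Epi comparison and 0.17 in the organoids. Fabp2, the intestinal type, was at -1.14 and 0.33. The keratin gene Krt18 was at 0.44 and -0.33. Among the remaining genes of the lists, Vil1, the villin gene, also met this condition, at -0.28 in the Epi comparison and 0.12 in the organoids. All are log2 fold changes, F4KO over WT, of the authors' deposited table, and the differences between the comparisons were not tested. The share of all genes meeting this condition is not given here. The lymphocyte genes were not placed to meet it. Ptprc, Cd3g and Gzmb had no organoid fold change, and the others had at most 13 organoid reads over both libraries (Cd8a). That none of them met it therefore says nothing about them.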

How the results depend on the processing

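No paired analysis was possible because each genotype had 1 library, and no library could be left out for the same reason. The count of lymphocyte genes past the size rule stayed at 0 in the Epi comparison with an FDR limit of 0.05, with a 1.5-fold limit, with either centring, with the ratio of recovered reads and with at least 20 reads. The largest absolute log2 fold change of the 10 was 0.376 (Cd3g) and the fewest reads were 136 (Cd3d). The looser FDR limit and the read filter therefore could not change the count. In the table of transcripts, taking the transcript with the lowest p-value of each gene, the count was 3 of 10 (Cd8a, Ptprc and Cd3e). That choice favours a pass for any gene with several transcripts. The share of all genes past it is not given here, so the count says nothing particular about the 10. In that comparison the median log2 fold change of the 10 genes was 0.07, and -0.30 when centred on the median of all genes. It was 0.23 when centred on the epithelial list, 0.09 from recovered reads plus 1 and 0.01 in the table of transcripts. In the organoids the count stayed at 0 under the alternatives run, and the median ran from -2.02 to -0.99. The lowest organoid FDR of a lymphocyte gene was 0.706 (Nkg7) in the authors' deposited table of genes, so neither FDR limit could be met there. No organoid member had 20 reads, so that filter gave no value there. Depth limits the organoid values, where 0 reads allow 0.184 RPM in F4KO.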

Other observations

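Of the few reads of these genes in the organoids, Cd8a held the most, and in the authors' deposited table of transcripts all of them, 7 in F4KO organoids and 6 in WT organoids, were assigned to NM_009857.1. The same transcript had 0 reads in F4KO Epi and 99 in WT Epi. For NM_001081110.2, with 242 reads in F4KO Epi and 260 in WT Epi, no fold change was listed in the organoids.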
